A study of Mus musculus with 33 samples.

Results

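The 32 genes described here carry out glycolysis or respond to low oxygen. They form a list of named genes, drawn up by function with earlier results of these data known: the glucose transporter Slc2a1, 8 genes of upper glycolysis (hexokinases, Gpi1, phosphofructokinases and aldolases), 7 of lower glycolysis, 4 of lactate production and transport, 3 regulators of flux, 8 hypoxia response genes and Hif1a. All 32 symbols were found among the 55487 genes of the count table, and all 32 passed the filter of 10 reads summed over the libraries, which left 36527 genes. Aldoa has a further row of the same name with 8 to 96 reads per library, and its row with the most reads was used. RNAseq libraries came from 33 mice, 1 library per mouse. WT tumor mice were PyMT-MMTV; Pthrp wt/wt and gave tumors at weeks 6, 8 and 10 (3 mice each) and at week 12 (1 mouse). KO tumor mice were PyMT-MMTV; Pthrp flox/flox and gave tumors at weeks 8, 10 and 12 (3 mice each). Tumor-free glands came from mice without the PyMT oncogene, 2 WT mice each at weeks 6, 8, 10 and 12 and 2 KO mice each at weeks 8, 10 and 12. All mice, controls included, carried MMTV-Cre and the mT/mG reporter, so that Cre turned mammary epithelial cells GFP+ in both genotypes. The PyMT, MMTV-Cre and backcrossed floxed lines were FVB, and the background of the reporter line is not given in the sources used here. After culture in serum-containing medium the GFP+ cells were sorted, and oxygen and glucose in that culture were not measured here. How far the RNA values reflect oxygen in the tissue was not tested. WT tumors of weeks 6, 8 and 10 and KO tumors of weeks 8, 10 and 12 were staged as hyperplasia, adenoma and carcinoma.

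Glycolysis splits glucose into pyruvate. Hexokinase traps glucose in the cell, phosphofructokinase commits it to the pathway, aldolase splits the sugar, and the lower enzymes from Tpi1 to Pkm yield ATP and pyruvate, which lactate dehydrogenase can turn into lactate for export by monocarboxylate transporters. Under low oxygen the subunit HIF-1 alpha escapes degradation, pairs with ARNT and binds DNA at an RCGTG core, where R is A or G, near many of these genes. Mammary tumors are known for high glycolysis in the presence of oxygen, and carbonic anhydrases on their surface handle the acid that results.

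Library totals ran from 28419983 to 130981596 reads (median 46351179). Ribosomal RNA genes took 0.0224% to 18.8% of reads in KO glands and 0.00331% to 12% in KO tumors, against at most 0.447% in any WT library. The targeted gene Pthlh, counted over all its exons, had 1.35 to 2.29 CPM (reads scaled to a common library size by edgeR's CPM, with TMM factors) in the 9 KO tumors and 1.46 to 6.67 CPM in the 9 WT tumors of weeks 6 to 10. In glands it had 2.79 to 8.52 CPM in KO and 2.93 to 7.73 CPM in WT mice, so the genotypes overlapped. A count over the whole gene need not fall to 0 when part of it is deleted. The study reports that its KO samples had no reads on the floxed exon of Pthlh, and reads per exon were not examined here. The 10 luminal markers summed to 4526 to 11100 CPM in all sets of libraries, a sum that need not show changes in its less abundant markers. In WT mice the 10 basal markers fell from a median of 10900 CPM in glands of weeks 6 to 10 to 2617 CPM in tumors. In KO mice they fell from 10690 CPM to 2513 CPM, and all 10 were called lower in both genotypes. Summed markers of adipocytes (12.4 to 40.1 CPM), macrophages (7.04 to 50.6 CPM) and lymphocytes (0.258 to 24.7 CPM) were low, and summed fibroblast markers ranged from 30.6 to 774.6 CPM in WT glands of weeks 6 to 10 and from 14.0 to 147.5 CPM in WT tumors. Of 10 fibroblast markers 6, and of 10 endothelial markers 7, were called lower in WT tumors, against 1 of each in KO tumors. Of all genes tested, 9.53% were called lower in WT tumors and 5.44% in KO tumors. In bulk samples, fewer cells of a type and less RNA per cell cannot be told apart.

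Tumors were first compared with glands of the same genotype, averaged over the 3 stages. A gene was called when the fold was over 1.5 and the adjusted p of edgeR's quasi-likelihood test, with Benjamini-Hochberg adjustment over all genes tested, was under 0.1. In WT mice 11 of the 32 genes were called, 7 higher and 4 lower in tumors, while 15.7% of all genes were called. In KO mice 11 were called, 10 higher and 1 lower, against 10.6% of all genes. All genes tested include those with as few as 10 reads summed over the libraries, so these shares are not matched for level. Without the 3 KO libraries with over 10% of reads on rRNA genes (KO gland week 8 replicate 2, KO gland week 12 replicate 2 and KO tumor week 8 replicate 2), a choice made after seeing the data, 8 were called in KO mice and Ldhb, Pdk1 and Pfkm were not. The median log2 difference of the 32 genes was 0.05 in WT and 0.10 in KO mice, beside 0.03 and 0.09 over all genes, so their median was near that of all genes. Car12, Car9, Aldoc, Pfkl, Adm and Ldhb were called higher in both genotypes and Pfkfb4 was called lower in both. Hk2 was called higher and Slc16a3, Vegfa and Hif1a lower in WT mice, and Ndrg1, Pfkm, Pfkfb3 and Pdk1 were called higher in KO mice.

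**Figure D1:**
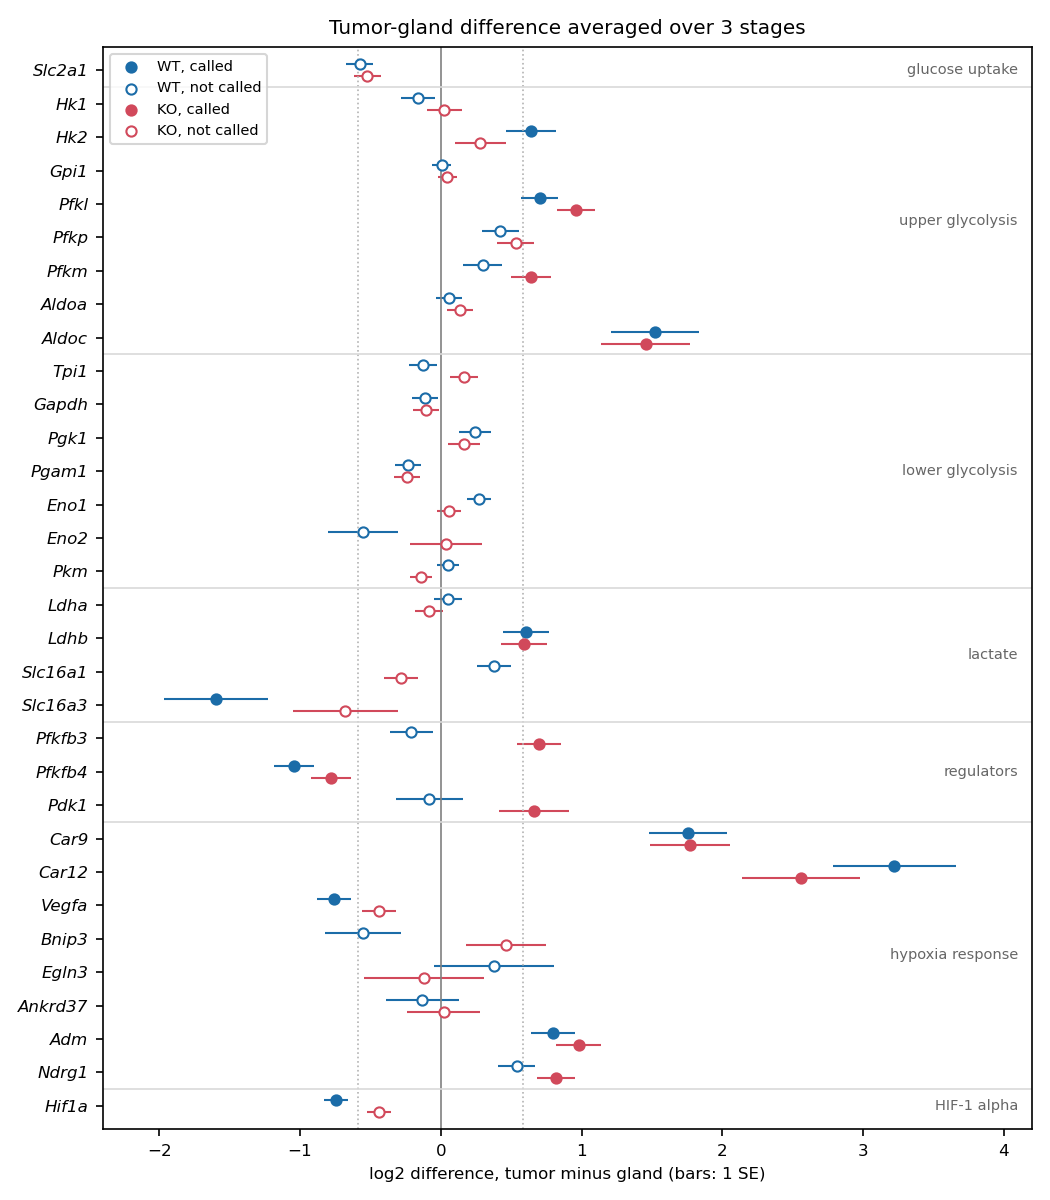
Log2 difference between tumors and glands of the 32 genes, averaged over 3 stages, in WT (blue) and KO (red) mice. Bars are 1 SE, filled points were called, and dotted lines mark a fold of 1.5. Car12, Car9 and Aldoc stand far to the right in both genotypes, Slc16a3 and Pfkfb4 to the left, and the lower glycolytic enzymes lie between the dotted lines.

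The abundant enzymes that carry the pathway were not called in either genotype. Pkm, the last ATP-yielding enzyme, had the highest level per kilobase of exon among the 32 genes, with a median of 446.7 CPM per kb in WT tumors and 438.7 CPM per kb in WT glands of weeks 6 to 10. Aldoa followed with 324.4 CPM per kb in WT tumors, then Ldha with 210.9, Eno1 with 186.8 and Pgk1 with 183.5 CPM per kb. Exon length here is the union of all annotated exons of a gene, so this order depends on the annotation. The CPM of 9 core genes (Gpi1, Aldoa, Tpi1, Gapdh, Pgk1, Pgam1, Eno1, Pkm and Ldha) summed to between 5906 and 8190 (median 6588) in WT tumors and between 5565 and 7145 (median 6671) in WT glands of weeks 6 to 10. In KO mice the sums were 6052 to 7749 (median 6470) in tumors and 6016 to 7804 (median 6606) in glands. The tumor and gland sums overlapped in both genotypes. They use the raw counts of Gapdh, of which a second deposited table holds 49.9% to 54.2% in each library, and which of the tables counts Gapdh rightly was not settled.

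Averaged log2 differences of these 9 genes were small. Ldha, the muscle-type subunit of lactate dehydrogenase, differed by 0.05 ± 0.10 (SE) in WT and -0.08 ± 0.10 in KO mice. Gapdh differed by -0.11 ± 0.09 and -0.11 ± 0.09 (-0.12 in both genotypes with the reads of the second table), and Pkm by 0.05 ± 0.08 and -0.14 ± 0.08. Eno1 in WT mice had an adjusted p of 0.0275 (edgeR) at 0.27 ± 0.09, and Pgam1 had adjusted p-values of 0.0828 and 0.0904 at -0.23 ± 0.09 in WT and -0.24 ± 0.09 in KO mice. These differences are under the fold of 1.5. Gapdh and Hprt serve as reference genes of qPCR in the study. Hprt, a purine salvage enzyme, differed by 0.05 ± 0.11 in WT and -0.09 ± 0.11 in KO mice. None of 12 reference genes was called in either genotype, beside 15.7% of all genes in WT and 10.6% in KO mice. Of these 12, 4 in WT and 2 in KO mice had an unadjusted p under 0.05 in edgeR.

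**Figure D2:**
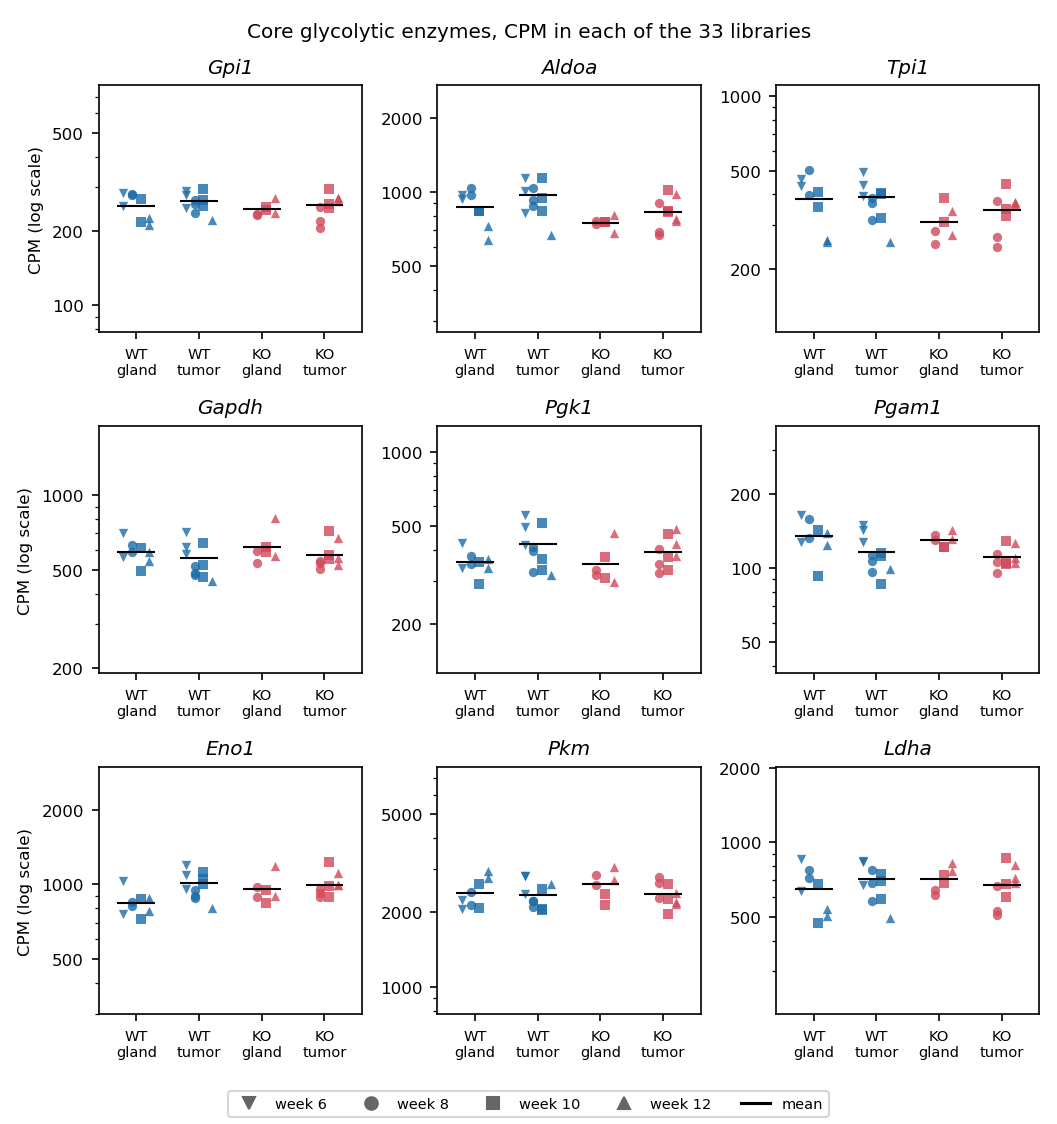
CPM of 9 core glycolytic genes in each of the 33 libraries, by tissue and genotype, on log axes that span at least 10-fold. Symbols give the age in weeks and black lines the mean of a set, without the WT tumor of week 12. The tumor and gland libraries overlap for every gene shown.

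In upper glycolysis 2 isoenzymes were called higher in both genotypes. Aldoc, the aldolase first known from brain, had 24.2 to 185.3 CPM in the 9 WT tumors (median 68.0) and 17.4 to 30.8 CPM in the 6 WT glands of the same ages (median 25.1). In KO mice it had 26.6 to 105.4 CPM in tumors (median 44.4) and 6.50 to 35.0 CPM in glands (median 22.8). Of the 9 tumors in each genotype, 8 exceeded all matched glands and the lowest overlapped with them. The fold was 2.87 in WT mice (log2 1.52 ± 0.31, adjusted p = 0.000787, edgeR) and 2.74 in KO mice (1.45 ± 0.31, adjusted p = 0.00163). By age, WT tumors had 51.6, 35.8 and 24.2 CPM at week 6, 87.8, 75.1 and 119 CPM at week 8, and 185, 68.0 and 52.2 CPM at week 10. Aldoa, the main aldolase, was uncalled at 0.06 ± 0.09 and 0.14 ± 0.09. Per kilobase of exon, the Aldoc share of both aldolases had a median of 2.42% in WT glands of weeks 6 to 10 and 6.75% in WT tumors, and of 2.54% and 5.57% in KO mice, so Aldoa made up most of both aldolases in these libraries.

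Pfkl, the liver-type phosphofructokinase, had 164 to 391 CPM in WT tumors (median 268.0) and 133 to 188 CPM in WT glands (median 170.4). KO tumors had 138 to 348 CPM (median 220.7) and KO glands 96.4 to 159 CPM (median 118.5). A single WT tumor of week 6, with 164 CPM, and 2 KO tumors of week 8, with 138 and 151 CPM, lay within the range of the glands. The fold was 1.63 in WT mice (log2 0.70 ± 0.13, adjusted p = 0.000317, edgeR) and 1.95 in KO mice (0.96 ± 0.13, adjusted p = 1.08e-05). Pfkp, the platelet type, had 109 to 172.0 CPM in WT tumors, 77.3 to 129 CPM in WT glands, 86.1 to 167 CPM in KO tumors and 57.0 to 112 CPM in KO glands. Its log2 differences were 0.42 ± 0.13 and 0.53 ± 0.13, under the fold of 1.5 in both genotypes. Pfkm, the muscle type, was called in KO mice at 0.64 ± 0.14 and had 0.30 ± 0.14 in WT mice. It had 16.3 to 31.8 CPM in KO tumors (median 19.4) and 10.6 to 17.3 CPM in KO glands (median 13.5), and the lowest tumors overlapped with the glands. Its call in KO mice was lost without KO gland week 12 replicate 2 or KO tumor week 12 replicate 2. Pfkl made up a median of 65.3% of the 3 phosphofructokinases per kilobase of exon in WT glands of weeks 6 to 10 and 69.9% in WT tumors, and 62.3% and 69.8% in KO mice. These shares rest on joined exon lengths of 6675 bases for Pfkl, 13401 for Pfkp and 3340 for Pfkm. Such a length can exceed that of any single transcript, so the shares depend on the annotation.

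Hexokinase 2, the inducible form known from tumors, had 36.5 to 86.0 CPM in WT tumors (median 69.3) and 28.0 to 55.6 CPM in WT glands (median 43.1). Its log2 difference was 0.64 ± 0.18 in WT mice, and the call was lost without WT gland week 8 replicate 1. In KO mice, with 55.3 to 104 CPM in tumors (median 64.2) and 43.1 to 98.4 CPM in glands (median 49.8), it was 0.28 ± 0.18 and uncalled. Hk1, the constitutive form, had 135 to 232 CPM in WT tumors and 170.0 to 229 CPM in WT glands, with differences of -0.16 ± 0.12 and 0.03 ± 0.12. Hk2 made up a median of 22.5% of both hexokinases per kilobase of exon in WT glands of weeks 6 to 10 and 33.6% in WT tumors, beside 26.7% and 34.1% in KO mice. The share was 19.1% to 27.1% in the 8 WT glands and 27.9% to 36.6% in the WT tumors of weeks 6 to 10, without overlap, but the WT tumor of week 12 had 22.8%, within the range of the glands. Slc2a1, the basal glucose transporter, went the other way: every WT tumor of weeks 6 to 10 (119 to 166 CPM, median 136.0) lay below every WT gland of those ages (181.0 to 239.5 CPM, median 209.3). KO tumors had 118 to 177 CPM (median 159.3) and KO glands 175 to 272 CPM (median 214.2). Its averaged log2 differences of -0.58 ± 0.09 (adjusted p = 5.66e-05, edgeR) and -0.52 ± 0.09 (adjusted p = 0.000264) passed the adjusted p but stayed just under the fold of 1.5, which is 0.585 on the log2 scale. In the averaged WT comparison Slc2a1 was called lower by DESeq2 and with its size factors. It was also called there by edgeR without WT gland week 8 replicate 1, WT tumor week 6 replicate 2 or WT tumor week 10 replicate 3. At single ages edgeR called it lower at WT week 8 (log2 -0.86) and KO week 12 (-0.69). These calls were kept in 5 and 3 of the 5 fits that left out 1 library.

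**Figure D3:**
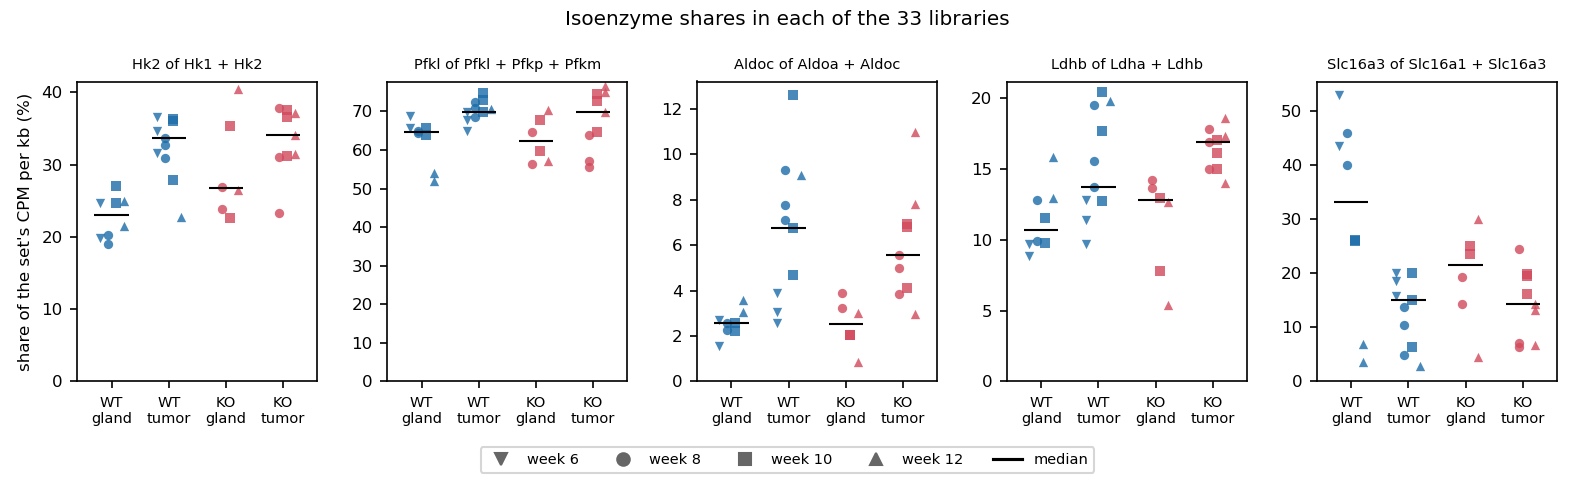
Share of 1 isoenzyme in its set, in percent of CPM per kb of exon, in each of the 33 libraries. Symbols give the age in weeks and black lines the median of a set, with the WT glands of week 12 and without the WT tumor of week 12. The median shares of Hk2, Aldoc, Pfkl and Ldhb are higher in tumors and that of Slc16a3 is lower, and the tissues overlap in every panel once the WT tumor of week 12 is counted.

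Among the lactate genes Ldhb, the heart-type subunit that favors the use of lactate, had 42.7 to 84.9 CPM in WT tumors (median 58.3) and 29.1 to 53.7 CPM in WT glands (median 36.0). KO tumors had 50.0 to 87.1 CPM (median 55.4) and KO glands 22.4 to 52.5 CPM (median 47.2), so the tissues overlapped in both genotypes. The averaged log2 difference was 0.60 ± 0.16 in WT and 0.59 ± 0.16 in KO mice, close to the fold of 1.5. The WT call was lost without WT gland week 6 replicate 2, week 8 replicate 2 or week 10 replicate 2, or without WT tumor week 6 replicate 1 or week 10 replicate 1. The KO call was lost without any of KO gland week 8 replicate 2, week 10 replicate 1 and week 12 replicate 2, and KO tumor week 8 replicate 1, week 10 replicate 3 and week 12 replicate 2, and also by DESeq2, with its size factors, with filterByExpr and with the rRNA share as a covariate. Ldhb made up a median of 9.81% of both subunits per kilobase in WT glands of weeks 6 to 10 and 13.7% in WT tumors.

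Slc16a3, which encodes the lactate exporter MCT4, fell in WT tumors. It had 6.81 to 35.5 CPM in WT tumors (median 18.3) and 30.4 to 74.8 CPM in WT glands of weeks 6 to 10 (median 66.8), and the WT tumor with the highest value overlapped with the glands. The fold was 0.331 (log2 -1.60 ± 0.37, adjusted p = 0.0024, edgeR). The level in glands itself differed by age: the 2 WT glands of week 6 had 69.2 and 73.6 CPM, those of week 8 had 64.5 and 74.8 CPM, those of week 10 had 40.4 and 30.4 CPM, and those of week 12, which have no matched tumors in the comparison, had 4.32 and 8.96 CPM. KO tumors had 6.05 to 37.5 CPM and KO glands 9.75 to 45.4 CPM, with a log2 difference of -0.68 ± 0.37 and an adjusted p of 0.292 (edgeR). Slc16a3 was called lower in KO mice with the rRNA share as a covariate (-0.96 ± 0.32, adjusted p = 0.0430), with no filter on low counts (-0.67 ± 0.25, adjusted p = 0.0804) and without KO tumor week 8 replicate 1 (-1.16 ± 0.31, adjusted p = 0.0111). Without KO gland week 12 replicate 1 the difference was -0.16 ± 0.38. Slc16a1, which encodes the bidirectional transporter MCT1, had 74.4 to 118 CPM in WT tumors, 54.5 to 94.8 CPM in WT glands, 67.2 to 104 CPM in KO tumors and 83.0 to 169 CPM in KO glands. Its log2 differences were 0.38 ± 0.12 in WT and -0.29 ± 0.12 in KO mice, uncalled in both.

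Of the regulators, Pfkfb4, a bifunctional enzyme that sets the level of the phosphofructokinase activator fructose 2,6-bisphosphate, fell in both genotypes. Every WT tumor (3.21 to 6.19 CPM, median 3.95) lay below every WT gland of weeks 6 to 10 (6.65 to 9.80 CPM, median 8.72). KO tumors had 3.21 to 7.28 CPM (median 4.70) and KO glands 5.15 to 11.4 CPM (median 7.76), with overlap. The folds were 0.486 (adjusted p = 4.83e-06, edgeR) and 0.582 (adjusted p = 0.000296). Pfkfb3, a related enzyme with high kinase activity, had 31.9 to 66.4 CPM in KO tumors (median 45.1) and 23.1 to 35.2 CPM in KO glands (median 30.4), a log2 difference of 0.70 ± 0.16. In WT mice the ranges were 25.2 to 41.8 CPM in tumors and 27.4 to 54.9 CPM in glands (-0.21 ± 0.15, uncalled). Pdk1, which blocks pyruvate entry into mitochondria, had 7.52 to 28.5 CPM in KO tumors (median 15.7) and 4.14 to 21.5 CPM in KO glands (median 9.96), with overlap. Its log2 difference was 0.66 ± 0.25 in KO mice and -0.08 ± 0.24 in WT mice. Its call in KO mice (adjusted p = 0.0811, edgeR) was lost with the rRNA share as a covariate and without any 1 of 6 libraries, namely KO gland week 8 replicate 2, week 10 replicate 2 and week 12 replicate 2, and KO tumor week 8 replicate 1, week 10 replicate 3 and week 12 replicate 2.

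The hypoxia response genes, like the others read in cells sorted after culture, moved in both directions. Car12, a membrane carbonic anhydrase also known as an estrogen-responsive gene of luminal cells, had the largest difference of the 32 genes in both genotypes. It had 32.2 to 579 CPM in WT tumors (median 195.2) and 6.00 to 35.1 CPM in WT glands (median 21.1), and only the lowest tumor, of week 6, lay within the range of the glands. KO tumors had 42.9 to 229 CPM (median 147.9) and KO glands 11.0 to 51.2 CPM (median 20.1), where the lowest tumor and the highest gland, both of week 12, overlapped. The folds were 9.34 in WT mice (log2 3.22 ± 0.43, adjusted p = 3.95e-06, edgeR) and 5.90 in KO mice (2.56 ± 0.42, adjusted p = 8.31e-05).

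Car9, a carbonic anhydrase widely used as a hypoxia marker, had a low level but a clear difference. Every WT tumor (9.42 to 24.9 CPM, median 11.4) exceeded every WT gland of weeks 6 to 10 (2.77 to 7.98 CPM, median 3.72). KO tumors had 3.65 to 23.9 CPM (median 11.7) and KO glands 1.63 to 6.99 CPM (median 1.95), with overlap. The folds were 3.38 in WT mice (log2 1.76 ± 0.28, adjusted p = 3.56e-05, edgeR) and 3.41 in KO mice (1.77 ± 0.29, adjusted p = 6.72e-05).

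Adm, which encodes the vasodilator adrenomedullin, rose 1.74-fold in WT and 1.97-fold in KO mice (adjusted p = 0.000576 and 7.72e-05, edgeR). It had 18.0 to 30.1 CPM in WT tumors, 8.40 to 21.1 CPM in WT glands, 24.7 to 51.7 CPM in KO tumors and 11.3 to 25.6 CPM in KO glands. Of the 9 WT tumors 3, with 18.0, 18.7 and 19.5 CPM, lay within the range of the glands, as did 1 of the 9 KO tumors. Ndrg1, a stress-induced gene of differentiated epithelium, rose in KO mice (log2 0.82 ± 0.13), where tumors had 144 to 270 CPM and glands 105 to 154 CPM. In WT mice it had 0.54 ± 0.13, which passed the adjusted p of 0.1 but not the fold of 1.5.

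Vegfa, the main angiogenic factor induced by HIF, fell in WT tumors. It had 52.3 to 103 CPM in WT tumors (median 84.3) and 93.6 to 177 CPM in WT glands (median 138.4), a fold of 0.590 (adjusted p = 4.25e-05, edgeR). KO tumors had 56.2 to 99.3 CPM and KO glands 80.9 to 143 CPM, a log2 difference of -0.44 ± 0.12, which is under the fold. The mitophagy receptor gene Bnip3 had -0.55 ± 0.27 in WT and 0.46 ± 0.28 in KO mice. Egln3, a HIF prolyl hydroxylase, and Ankrd37, an ankyrin repeat gene, were near the low end of the levels, with at most 9.04 CPM in the matched libraries, and their differences lay within 1 SE of 0 in both genotypes. None of these 3 genes was called at any age by edgeR over all libraries with low counts removed. Bnip3 was called higher at KO week 12 by DESeq2, by edgeR with no filter on low counts, and without KO tumor week 12 replicate 1. In the averaged WT comparison it was called lower without WT gland week 8 replicate 1 and without WT tumor week 10 replicate 1. The basal markers fell in the tumors of both genotypes. Their part in the lower values of Pfkfb4, Vegfa, Slc16a3, Slc2a1 and Hif1a was not tested. Nor was their part in the higher values of Car12, Car9, Aldoc, Pfkl, Adm and Ldhb. The part of the fibroblast and endothelial markers in WT mice was not tested either.

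**Figure D4:**
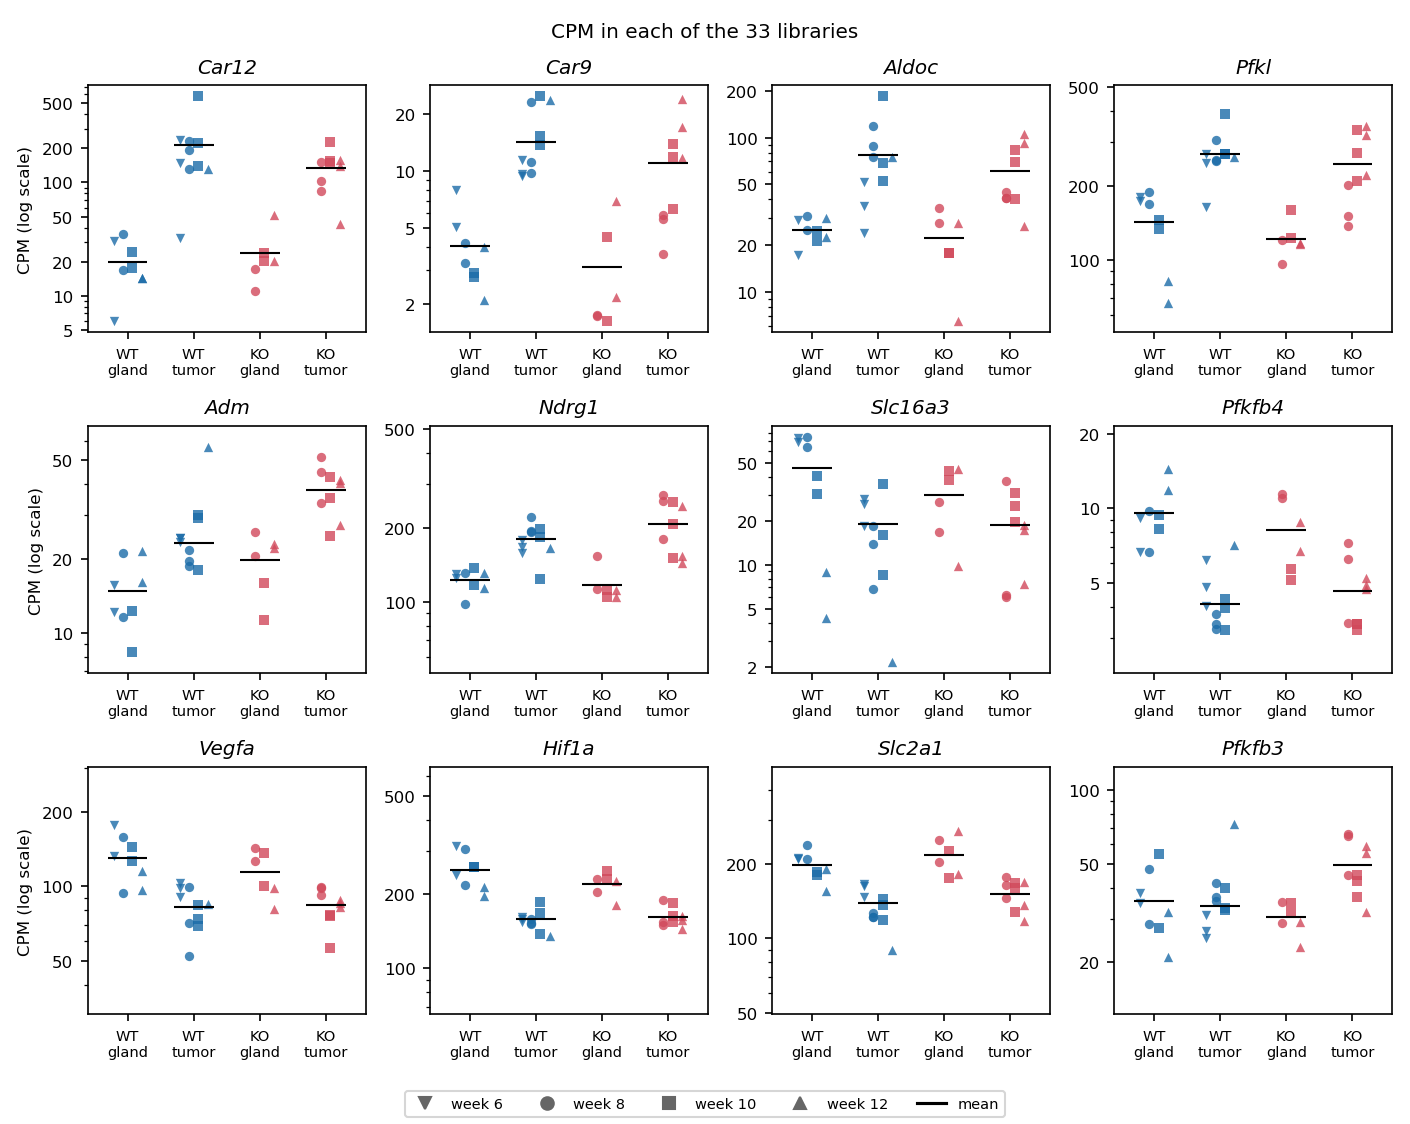
CPM of 12 of the genes in each of the 33 libraries, by tissue and genotype, on log axes. Symbols give the age in weeks and black lines the mean of a set, without the WT tumor of week 12. WT tumors of weeks 6 to 10 all lie above the matched WT glands for Car9, and all below them for Pfkfb4, Hif1a and Slc2a1.

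Hif1a, the oxygen-sensitive subunit itself, had 138 to 185 CPM in WT tumors (median 158.6) and 219 to 315 CPM in WT glands (median 258.1), with no overlap between them. The fold was 0.598 (log2 -0.74 ± 0.09, adjusted p = 3.68e-07, edgeR), the smallest adjusted p of the 32 genes. In KO mice tumors had 145 to 190.1 CPM and glands 181 to 249 CPM, and the log2 difference of -0.44 ± 0.09 passed the adjusted p (0.000589) but not the fold. HIF-1 alpha is regulated mainly as a protein, which was not measured here. Of 8 other genes of HIF regulation, 2 were called in WT and 2 in KO mice, 25% of the list in each, beside 15.7% and 10.6% of all genes. Arnt2, a partner of HIF alpha subunits, rose in both genotypes (log2 1.65 ± 0.24 and 2.16 ± 0.25), from 0.731 to 3.00 CPM in the 8 WT glands to 4.64 to 9.16 CPM in WT tumors. Epas1, which encodes HIF-2 alpha, fell in WT mice (-1.38 ± 0.23). Hif3a was called lower in KO mice on at most 11 reads per library, so its value is imprecise.

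Sequences around the start sites were searched for the HIF core motif. Windows from 250 bases before to 50 after each start were taken from RefSeq (GRCm38.p6) for 31 of the 32 genes, and no window was at hand for Ndrg1. The letters ACGTG or GCGTG were searched on both strands, so that CACGT and CACGC on the gene's own strand are the same motifs reversed, and an ACGTG next to a C can also be part of the E-box CACGTG. At least 1 match was found for 27 of the 31 genes (87.1%), beside 46.7% of 27025 genes with a window. Stretches with the motif in capitals are given for genes called higher (Car9, Adm, Aldoc, Pfkl) and for genes that were lower in tumors (Slc16a3, Pfkfb4, Slc2a1), each on the gene's strand.
Car9, chr4:43506995-43507024: cctatttccgatgCACGTacagcccgtcca
Adm, chr7:110627590-110627619: gggcaaatctgacCACGCccaccgtccgcc
Aldoc, chr11:78323010-78323039: tccacctctgaggGCGTGgccttaccctag
Pfkl, chr10:78009890-78009919, minus strand: catttgtagactgGCGTGcgctccgccttt
Slc16a3, chr11:120949034-120949063: gcggtgACGTGcgcgggggACGTGccgcgc
Pfkfb4, chr9:108991772-108991801: tttgacggatgggGCGTGcttagtccaaaa
Slc2a1, chr4:119108684-119108713: CACGCctctcagagtcccgccccggACGTG
Genes of both directions thus held the motif in this window. The first letter of the match shown stood 18 bases before the start in Car9, 54 in Adm, 50 in Aldoc and 99 in Pfkl. Adm and Aldoc held further matches that are not shown. It stood 27 and 14 bases before the start in Slc16a3, 61 and 36 in Slc2a1, and 117 in Pfkfb4. Car12, the gene with the largest difference, had no match in its window, nor had Gpi1, Tpi1 and Eno2, which were uncalled. The 150 bases before the start of Car12 are shown for comparison.
Car12, chr9:66713536-66713685: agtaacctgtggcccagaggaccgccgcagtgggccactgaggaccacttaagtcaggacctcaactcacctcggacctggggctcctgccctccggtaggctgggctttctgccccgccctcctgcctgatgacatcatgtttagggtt

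At single ages, each with 3 tumors against 2 glands, 4 of the 32 genes were called in WT mice at week 6 (5.86% of all genes), 9 at week 8 (9.19%) and 9 at week 10 (6.13%). In KO mice 4 were called at week 8 (2.49% of all genes), 7 at week 10 (5.66%) and 8 at week 12 (6.11%). No gene was called in opposite directions at different ages, and 16 genes were called at none of the 6 by edgeR over all libraries with low counts removed. Of these 16, 5 were called under an alternative. The share of all genes called at none of the 6 ages was not counted, so these counts have no background. Bnip3 and Pdk1 were called at KO week 12 by DESeq2, among other settings, and Eno2 at WT week 6 with only the groups compared in the fit. Pgam1 was called at WT week 8 without WT gland week 8 replicate 2, and Slc16a1 at KO week 12 without KO gland week 12 replicate 1. Car12 was called at 5 ages, with log2 differences over the 6 ages from 1.67 (KO week 12, uncalled) to 3.90 (WT week 10). Aldoc, Car9 and Ndrg1 were each called higher at 4 ages, and Vegfa was called lower at 4. Each of these calls was refitted 5 times, without 1 library each time. Depending on the age, it was kept in 1 to 3 of the 5 fits for Aldoc, 2 to 5 for Car9, and 1 to 4 for each of Ndrg1 and Vegfa. Hif1a was called lower at all 3 WT ages (-0.81, -0.76 and -0.66) and at no KO age. Each of these WT calls was lost without 1 library (WT gland week 6 replicate 2, WT gland week 8 replicate 2 and WT tumor week 10 replicate 2), and the call at week 10 also with only the groups compared in the fit. At KO week 10 Hif1a was called lower with the rRNA share as a covariate and without KO tumor week 10 replicate 1. Hk2 was called at WT week 6, Pfkp at KO week 8 and Pfkm and Pfkfb3 at KO week 12. The call of Hk2 was kept in 0 of the 5 fits that left out 1 library and was lost with DESeq2 size factors and with the rRNA share as a covariate. Pfkp kept its call in 1 of 5 such fits, and Pfkm and Pfkfb3 in 2 of 5 each. Pfkp, Pfkm and Pfkfb3 lost it without the 3 libraries rich in rRNA reads, and Pfkm and Pfkfb3 also with only the groups compared in the fit.

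The number called at an age rested on few libraries. At WT week 6 it was 2 without gland replicate 1 or tumor replicate 1, and 1 without gland replicate 2 or tumor replicate 2. At WT week 8 it was 5 without gland replicate 1. At KO week 8 it was 0 without gland replicate 1 or gland replicate 2, where 1 gland is assumed to vary like the other groups, and 2 without tumor replicate 2 or 3. At KO week 10 it was 2 without gland replicate 1, gland replicate 2 or tumor replicate 3. At KO week 12 it was 3 without gland replicate 2 or tumor replicate 2, and 4 without tumor replicate 3. Without the 3 libraries rich in rRNA reads it was 0 at KO week 8 and 3 at KO week 12. The averaged comparisons changed less, with 10 to 13 genes called in WT and 8 to 12 in KO mice over the fits that left out 1 library.

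**Figure D5:**
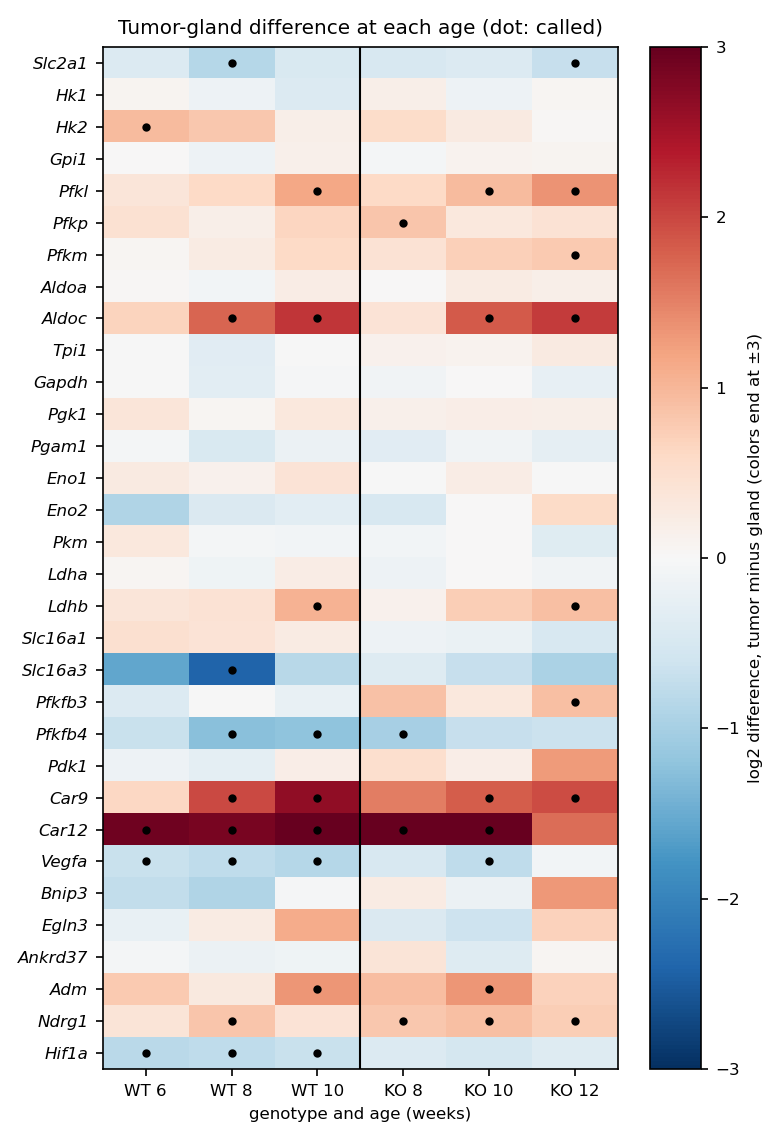
Log2 difference between tumors and glands for the 32 genes (rows) at each of 6 ages (columns, WT left and KO right of the line), with red for higher and blue for lower in tumors. Dots mark calls. Car12 is red in all columns, Hif1a, Slc2a1, Slc16a3, Vegfa and Pfkfb4 are blue in all, and most rows of the core enzymes are pale. Colors end at a log2 difference of 3 in either direction.

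WT and KO tumors were compared directly at the ages they share, weeks 8 and 10, with 6 tumors in each. Of the 32 genes 2 were called, beside 0.512% of all genes. DESeq2 and edgeR with no filter on low counts called Aldoc as well, which was higher in WT tumors by 0.91 ± 0.33 on the log2 scale in edgeR with the filter (adjusted p = 0.275). Car9 was 2.21-fold higher in WT tumors (log2 1.15 ± 0.29, adjusted p = 0.0930, edgeR). It had 9.83 to 24.9 CPM (median 14.6) in WT tumors and 3.65 to 14.0 CPM (median 6.11) in KO tumors, so the upper KO tumors overlapped with the WT tumors. Adm was lower in WT tumors, at a fold of 0.588 (log2 -0.77 ± 0.17, adjusted p = 0.0483), with 18.0 to 30.1 CPM (median 20.6) against 24.7 to 51.7 CPM (median 39.0). Both calls rested on single libraries. Car9 stayed called only without KO tumor week 8 replicate 1, WT tumor week 8 replicate 1 or WT tumor week 10 replicate 2, and Adm was lost without KO tumor week 8 replicate 2 or 3, KO tumor week 10 replicate 2 or 3, or WT tumor week 8 replicate 2 or 3. Neither gene was called without the 3 libraries rich in rRNA reads, of which 1 is a KO tumor of week 8, and Adm was not called with the rRNA share as a covariate. At 1 age WT and KO tumors are also of different stages.

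The difference between genotypes in the tumor effect itself, stage by stage, was tested as an interaction. None of the 32 genes was called (0.14% of all genes were), 6 had an unadjusted p under 0.05 in edgeR, and DESeq2 called 2. Pfkfb3 came closest, with an effect lower in WT than in KO mice by 0.91 ± 0.22 on the log2 scale (adjusted p = 0.109), followed by Slc16a1, with an effect higher in WT mice by 0.66 ± 0.17 (adjusted p = 0.137). These are the 2 genes that DESeq2 called. Both or either of them were also called without certain single libraries: both without KO gland week 12 replicate 1, WT gland week 6 replicate 1 or WT gland week 10 replicate 1, Pfkfb3 without KO tumor week 8 replicate 1, KO tumor week 12 replicate 1, WT gland week 8 replicate 1 or WT tumor week 10 replicate 1, and Slc16a1 without WT tumor week 10 replicate 2. In the averaged comparisons Hk2, Slc16a3, Vegfa and Hif1a were called in WT mice alone, and Ndrg1, Pfkm and Pdk1 in KO mice alone. The tumor effects of these genes were thus not shown to differ between the genotypes. At single ages Vegfa was also called lower at KO week 10 (log2 -0.76) and Ndrg1 higher at WT week 8 (0.82).

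Glands of WT and KO mice, averaged over weeks 8, 10 and 12, differed in none of the 32 genes by the call rule (0.906% of all genes were called), with 6 at an unadjusted p under 0.05 in edgeR and 0 called by DESeq2. Hk2 was called without KO gland week 12 replicate 1. Between WT tumors of week 10 and week 6 none was called (0.011% of all genes), with 6 at an unadjusted p under 0.05. DESeq2 called Aldoc, which was higher at week 10 by 1.45 ± 0.47 in edgeR (adjusted p = 0.472). Between KO tumors of week 12 and week 8 none was called (0% of all genes), with 8 at an unadjusted p under 0.05. Counts at an unadjusted p under 0.05, here and elsewhere, are given without the share of all genes at that threshold. They are not read as an effect. DESeq2 called Car9 and Pfkl, which were higher at week 12 by 1.80 ± 0.42 and 0.86 ± 0.20 in edgeR (adjusted p = 0.442 for each) and were called without KO tumor week 8 replicate 1.

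Further genes of the pathway, from lists made by function, held genes that were called beside the uncalled core enzymes. The counts below stand beside 15.7% of all genes called in WT and 10.6% in KO mice. Of 24 other glycolysis and gluconeogenesis genes, 4 rose and 4 fell in WT tumors, and 3 rose and 2 fell in KO tumors, which is 33.3% and 20.8% of the list. Fbp2, a fructose bisphosphatase that opposes phosphofructokinase, rose by 2.51 ± 0.33 in WT and 4.24 ± 0.40 in KO mice on the log2 scale, from at most 0.419 CPM in glands to 0.468 to 4.17 CPM in tumors. Fbp1 rose by 1.71 ± 0.59 and 3.25 ± 0.72, from at most 0.365 CPM in glands to 0.0880 to 2.96 CPM in tumors. Gpd1, which links glycolysis to glycerol, rose by 1.68 ± 0.26 in KO mice. Slc2a4, the insulin-responsive glucose transporter, fell by 2.34 on the log2 scale (SE 0.30) in WT and by 1.96 (SE 0.30) in KO mice, from 9.41 to 66.1 CPM in glands to 4.13 to 20.1 CPM in tumors. Hk3 was called lower in WT mice (-1.97 ± 0.53), on at most 4.57 CPM.

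Of 13 genes of pyruvate entry into mitochondria, 2 rose in WT mice, and 2 rose and 1 fell in KO mice. These are 15.4% and 23.1% of the list, the former near the 15.7% of all genes called in WT mice and the latter beside 10.6% in KO mice. Pcx, the pyruvate carboxylase that refills the citric acid cycle, rose by 2.18 ± 0.22 in WT and 1.59 ± 0.21 in KO mice, from 3.62 to 12.7 CPM in the 8 WT glands to 11.1 to 32.1 CPM in WT tumors. The mitochondrial pyruvate carrier subunit Mpc2 rose in WT mice (0.63 ± 0.09), Pdk2 rose (1.30 ± 0.29) and the phosphatase subunit Pdp2 fell (-0.78 ± 0.11) in KO mice. None of 7 pentose phosphate genes was called, with 5 in WT and 2 in KO mice at an unadjusted p under 0.05. Of 5 glucose-sensing genes, Arrdc4 (1.35 ± 0.29 and 1.48 ± 0.29) and Mlxipl, which encodes the glucose-responsive factor ChREBP (0.89 ± 0.21 and 1.11 ± 0.21), rose in both genotypes.

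Of 26 other known HIF targets, 6 rose and 4 fell in WT mice, and 5 rose and 1 fell in KO mice. These are 38.5% and 23.1% of the list, beside 15.7% and 10.6% of all genes. Angptl4, a lipoprotein lipase inhibitor, rose by 1.10 ± 0.26 and 1.63 ± 0.26, and Ppp1r3c, a glycogen targeting subunit, rose by 2.36 ± 0.64 and 2.25 ± 0.70 on at most 4.46 CPM. In KO mice the nuclear receptor gene Rora (1.13 ± 0.18) and Zfp395 (0.87 ± 0.23) rose. Among those that fell in WT mice were Stc2, which encodes stanniocalcin 2 (-1.22 ± 0.29), and Lox, the collagen cross-linking lysyl oxidase (-1.12 ± 0.24). All 10 proliferation genes rose in WT mice, led by Birc5 (1.20 ± 0.34), Top2a (1.13 ± 0.35), Cenpf (1.11 ± 0.34) and Cdk1 (1.07 ± 0.37). In KO mice none was called by edgeR, with 0 at an unadjusted p under 0.05. The CPM of the 10 genes summed to a median of 373.3 in WT glands (134.4 to 1172) and 1105 in WT tumors (389.2 to 1457) of weeks 6 to 10, and to 937.3 in KO glands (249.3 to 2203) and 909.2 in KO tumors (486.3 to 1574) of weeks 8 to 12, with overlap between all 4 sets. None of the 10 was called by edgeR for the difference between genotypes in the tumor effect, with 3 at an unadjusted p under 0.05.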

How the data were processed

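RNAseq counts from 33 libraries were analysed. Total RNA of sorted GFP+ cells was depleted of rRNA and made into stranded libraries. The authors mapped to GRCm38 with HISAT, used Picard 1.128 to drop duplicates and took gene counts from HTSeq on Gencode annotation, and SAMtools, R 3.6.2 and DESeq2 are also named in the submitters' processing notes. Whether strand was used in counting is not given in the sources used here. The deposited values are raw counts per gene, and a second deposited table holds counts divided by size factors (signal), whose values were all whole reads (100%, tolerance 0.001) once that step was undone. It was used only as an alternative, in which the quasi-likelihood test called 5674 and 3856 genes in the averaged WT and KO comparisons.

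Rows of no gene (111 rows, 0.0778% of reads) were left out, and genes with fewer than 10 reads summed over the libraries were removed. edgeR 4.0.16 (TMM, quasi-likelihood test) in R 4.3.3 was fitted with 1 coefficient per genotype, tissue and age over all 33 libraries. SE is the size of the log2 difference divided by the square root of F. The WT tumor of week 12, a group of 1, entered the fit but no comparison. The fit was tested on simulated data. No pair of replicates agreed within sampling noise (25 pairs, lowest chi-square per degree of freedom 42.27). Replicate numbers name different mice and do not pair them. Values by library or range were given for genes called at 2 or more single ages or in any other comparison, and for their isoenzymes. Of each further list up to 4 called genes with the largest differences were named. The genes and lists were chosen with earlier results of these data known. Alternatives were DESeq2 1.42.0, its size factors, other filters on low counts, a replicate block, the rRNA share as a covariate, only the groups compared, reads recovered from the second table, each library left out, and, added after seeing the data, leaving out the libraries rich in rRNA reads.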

Additional observations from a re-analysis of the deposited data

Results flagged for a closer look

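The WT tumor of week 12 is 1 library and entered no comparison. It stood above all 8 WT glands for 9 of the 32 genes, beside 17.6% of all genes tested. It had 262 CPM of Pfkl, 23.6 CPM of Pfkm, 74.7 CPM of Aldoc and 57.5 CPM of Ldhb. Pfkfb3 was at 72.9 CPM, Car9 at 23.7 CPM, Car12 at 132 CPM, Adm at 56.5 CPM and Ndrg1 at 165 CPM. With 1 library these positions have no replicate check and no test.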

How the results depend on the processing

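No call of a single gene changed direction under any alternative run, and the directions of uncalled differences were not followed. The number of the 32 genes called moved by over 1.5 times in these cases. DESeq2 called 7 at WT week 6, 7 at KO week 8, 2 for the difference between genotypes in the tumor effect, 1 between WT tumors of weeks 10 and 6 and 2 between KO tumors of weeks 12 and 8. With no filter on low counts 8 were called at KO week 8, 3 for the difference in the tumor effect, 1 between glands, 1 between WT tumors of weeks 10 and 6 and 2 between KO tumors of weeks 12 and 8. With filterByExpr 2 were called for the difference in the tumor effect. With only the groups compared in the fit 0 were called at KO week 12, where fewer samples give the spread. With the rRNA share as a covariate 1 was called between WT and KO tumors. Without the libraries rich in rRNA reads 0 were called at KO week 8, 3 at KO week 12 and 0 between WT and KO tumors. The causes of the other changes were not tested. Leaving out 1 library gave 1 to 3 called at WT week 6, 5 to 9 at WT week 8, 6 to 10 at WT week 10, 0 to 5 at KO week 8, 2 to 9 at KO week 10 and 3 to 12 at KO week 12. It gave 10 to 13 in the averaged WT comparison, 8 to 12 in the averaged KO comparison, 0 to 2 for the difference in the tumor effect, 0 to 2 between WT and KO tumors, 0 to 1 between glands, 0 to 0 between WT tumors of weeks 10 and 6 and 0 to 2 between KO tumors of weeks 12 and 8. Of 559 single calls refitted without 1 library 447 held and 112 did not, and of 545 under other alternatives 508 held and 37 did not. A replicate block gave 4, 9 and 9 called at WT weeks 6, 8 and 10, 5, 7 and 7 at KO weeks 8, 10 and 12, 11 in each averaged comparison, 2 between WT and KO tumors and 0 in the others. Deviations of libraries with the same number had a median correlation of 0.0316 over 171 pairs, so the numbers were not used to pair mice. Groups held 2 or 3 mice, and what size of difference this could detect in low genes was not tested.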

Other observations

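Gapdh had fewer reads in the second, normalized table than in the raw counts. Over all libraries the raw table holds 1001361 reads of Gapdh and the normalized table holds 526585 once its scaling is undone, and the share was 49.9% to 54.2% in each of the 33 libraries. Which of the tables counts Gapdh rightly was not settled. The lowest share in any library was 98.8% for each of Bnip3 and Ankrd37, the genes with the next lowest shares. The WT tumor of week 12 lay below all 8 WT glands for Slc2a1 (89.6 CPM), Gapdh (447 CPM), Slc16a3 (2.16 CPM), Vegfa (84.8 CPM) and Hif1a (136 CPM), beside 11.7% of all genes tested.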
